A study of Mus musculus with 4 samples.

Results

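The cells described here came from mouse malignant ascites and were taken as tumour cells. They carried transcripts of Upk3b and Aldh1a1, genes found together in the mesothelium. They were chosen from single-cell RNA counts by limits on unique molecular identifiers (UMIs), each of which marks 1 captured transcript. A cell had at least 200 detected genes and at most 33% of its UMIs from mitochondrial genes. It held at least 5 UMIs of Krt7, Krt8, Krt18, Krt19 and Wt1 together, which mark the tumour cells, and 0 of the leukocyte gene Ptprc. It also held at most 4 UMIs of Cd24a, Gkn2 and Krtdap together, at most 2 of the division genes Mki67, Top2a and Ube2c together, at most 2 of Cxcl17, and at least 5 of Upk3b and Aldh1a1 together. These limits kept 6919 cells, called Upk3b/Aldh1a1 cells below, of 26012 that passed the tumour limits and of 46342 deposited cells. Because Upk3b and Aldh1a1 counts chose the cells, the levels of both genes describe the choice and are not a result.

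All animals were female C57BL/6 mice, 6 weeks old when ID8-Trp53-/- cells were injected into the peritoneal cavity, and treatment began after 7 days of engraftment. ID8 is a tumour line derived from mouse ovarian surface epithelium, and its Trp53-/- form was made by Cas9 knockout of Trp53, the gene of the tumour suppressor p53. The control group received DMSO and an IgG2a isotype antibody, the BTYNB group BTYNB and the isotype antibody, the anti-PD-1 group DMSO and an antibody that blocks PD-1, and the combination group BTYNB and the PD-1 antibody. BTYNB is a small molecule against the RNA-binding protein Igf2bp1, and PD-1 is an inhibitory receptor of T cells. The labels give 50 mg/kg of BTYNB and 100 ng of antibody per dose, 2 times a week until about 3 mL of ascites, and these doses differ from those in the written methods. Each group was 1 library made from pooled animals, so no comparison between groups has a replicate check, and no test was run and no p-value is given anywhere.

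Mesothelium is the single layer of flat cells that covers the peritoneum, pleura and pericardium. It arises from Wt1-expressing mesoderm, and it carries microvilli coated with podocalyxin, mesothelin and mucin 16 as well as keratins otherwise found in epithelia. The surface epithelium of the ovary is a modified part of this layer and shares many of its genes. Upk3b is a uroplakin, a membrane protein first known from the bladder lining, and Aldh1a1 is an aldehyde dehydrogenase that makes retinoic acid from retinaldehyde. Normal mesothelial cells shed into ascites from the host would pass the same limits, and the counts used here cannot tell them apart from tumour cells. Counts per gene do not show the Cas9 edit either: Trp53 transcripts were still counted, at 25.1 to 34.7 CPM (counts per 1000000 UMIs, defined below).

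The libraries held 78603888 to 114600397 UMIs. Upk3b/Aldh1a1 cells were compared, within each library, with Upk3b/Aldh1a1-low cells, which passed every other limit but held at most 1 UMI of both genes together. Both classes were limited to cells with at least 5115 UMIs, the size of the smallest deposited combination cell, since the libraries were deposited down to different depths. This left 1660, 681, 2183 and 1100 Upk3b/Aldh1a1 cells and 177, 41, 234 and 71 low cells in control, BTYNB, anti-PD-1 and combination, the order kept below wherever 4 values follow each other. Depth moved with the classes in part: the Upk3b/Aldh1a1 cells had a median of 8240.5, 15080, 6802 and 9947.5 UMIs, and the low cells 7814, 8736, 6428.5 and 6904. The low cells also carried more mitochondrial UMIs in BTYNB (median 18.4% against 12.1%), combination (15.3% against 12.3%) and anti-PD-1 (13.4% against 12.4%), while the control medians were 11.7% and 11.6%. Levels are given as CPM, the counts per 1000000 of the UMIs summed over the cells of a class in a library, with exact Poisson 95% intervals that cover counting error only. A gene was called where its CPM + 1 differed at least 1.5-fold the same way in all 4 libraries.

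The label was checked on genes that the limits did not use. Gpm6a, Upk1b, Msln, Muc16 and Lrrn4, all known from mesothelium, were present in the Upk3b/Aldh1a1 cells of every library, at 463 to 539 CPM for Gpm6a and 14.3 to 17.7 CPM for Lrrn4. Other mesothelial genes were near 0: Krt5, a keratin of normal mesothelium, had 0 UMIs in the Upk3b/Aldh1a1 cells of all 4 libraries (at most 0.191 to 0.284 CPM from 3 counts), Calb2 stood at no more than 0.168 CPM and Itln1 at no more than 0.138 CPM. Some genes of other cell types were present too. Summed over 14 macrophage markers, Upk3b/Aldh1a1 cells held 53.3, 65.4, 113 and 99.2 CPM, and low cells 119.5, 43.1, 186 and 925 CPM. Of these markers Ptprc was 0 by the limit, while Lyz2 gave 16.5, 22.7, 43.4 and 35.2 CPM in Upk3b/Aldh1a1 cells. Summed over 12 fibroblast markers, Upk3b/Aldh1a1 cells held 464, 578, 443 and 589.6 CPM, and low cells 315, 2152, 385 and 1046 CPM. Dcn gave most of the former sum, at 275 to 366 CPM, while Dpt, Lum, Pdgfrb and Rgs5 stood below 1 CPM in every library. Summed over 11 endothelial markers, Upk3b/Aldh1a1 cells held 623, 637, 534 and 598 CPM, and low cells 276, 297, 332 and 263 CPM. Podxl, which is also counted as a mesothelial gene below, gave most of the sum in Upk3b/Aldh1a1 cells, at the levels given below. Of 4 of them that entered the comparison, Podxl and Esam were called higher (50%, beside 2.55% of all tested genes). Esam stood at 107 to 126 against 29.9 to 67.5 CPM. Tek, Tie1, Vwf and Emcn stood below 1 CPM in Upk3b/Aldh1a1 cells. The part of these transcripts in the results was not tested.

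Between 23.9% and 29.03% of tumour cells were Upk3b/Aldh1a1 cells. The share was 25.1% for control (exact binomial 95% interval 24.1 to 26.1%), 23.9% for BTYNB (22.5 to 25.3%), 29.03% for anti-PD-1 (28.2 to 29.9%) and 25.2% for combination (23.9 to 26.5%). The anti-PD-1 share lay above the other 3, whose intervals overlapped. At 5115 UMIs or more it did not, since the shares were then 24.3%, 24.2%, 24.9% and 25.2%. Among the cells that passed all other limits, 79.1%, 62.5%, 75.9% and 83.8% held at least 5 UMIs of Upk3b and Aldh1a1. The low BTYNB value moved with depth: at 5115 UMIs or more it was 87.3%, the highest of the 4, and after thinning every cell to 5115 UMIs the shares were 63.9%, 68.9%, 67.2% and 69.0%. All limits were applied again to the thinned counts, so cells that had failed an upper limit could enter. After thinning, 3239, 1813, 3621 and 2426 cells passed the other limits, beside 2082, 780, 2780 and 1313 before it. The thinned shares thus describe a wider set of cells, of which Upk3b/Aldh1a1 cells were the larger part in all 4 libraries.

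**Figure D1:**
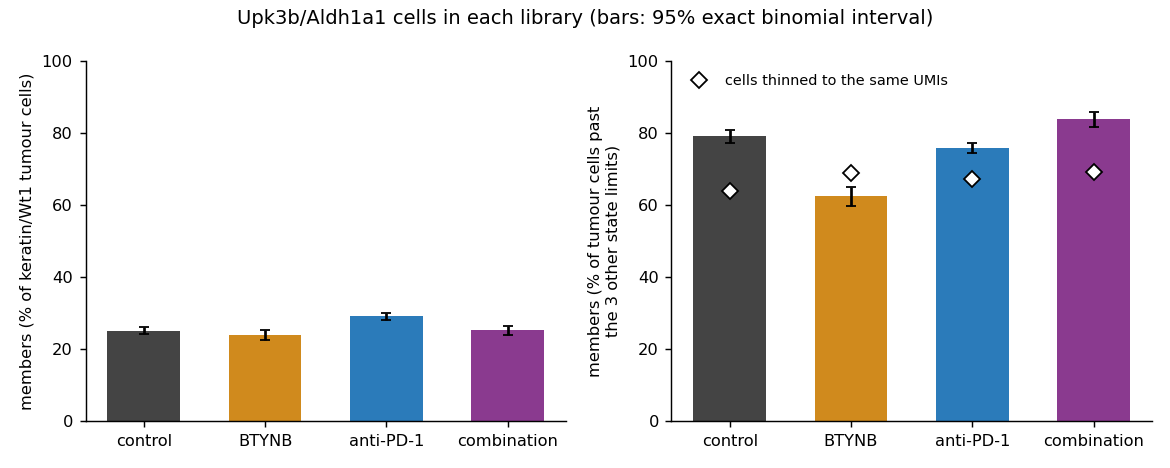
Share of Upk3b/Aldh1a1 cells in each library, in percent of tumour cells and of cells that passed every other limit, with exact binomial 95% intervals as error bars and diamonds for cells thinned to 5115 UMIs. The share of tumour cells lay between 23.9% and 29.03%, and the share of cells past the other limits spanned 62.5% to 83.8% before thinning and 63.9% to 69.0% after it. The limits were applied again after thinning, so the diamonds describe a wider set of cells.

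Both genes were used by the limit, so their presence describes the choice. Cells with at least 1 UMI of Upk3b and at least 1 of Aldh1a1 made up 95.9%, 96.6%, 94.1% and 96.6%. Leukocytes, taken as cells with a Ptprc UMI and 0 UMIs of the keratins and Wt1 and therefore chosen to hold little tumour RNA, had a Upk3b UMI in 3.69% of 1383 cells (BTYNB) and 12.8% of 729 cells (combination) at 5115 UMIs. The control and anti-PD-1 libraries held 76 and 21 such leukocytes, too few for a close comparison. Upk3b stood at 1116 (control), 899.9 (BTYNB), 885 (anti-PD-1) and 862 CPM (combination), and Aldh1a1 at 1163 (control), 1223 (BTYNB), 1283 (anti-PD-1) and 1168 CPM (combination). At 5115 UMIs or more, 61.3%, 73.0%, 50.5% and 60.3% of the cells held at least 5 UMIs of each gene. Cells with at least 5 UMIs of Aldh1a1 but fewer of Upk3b made up 15.1%, 13.1%, 27.6% and 19.5%, at the unequal median depths given above. Cells with at least 5 UMIs of Upk3b but fewer of Aldh1a1 made up 16.0%, 7.34%, 12.4% and 11.2%. Among all cells past the other limits, Aldh1a1 was higher where Upk3b was higher: in control it was 280.0 CPM (259.9 to 301) in cells with no Upk3b UMI, 603 CPM (579.6 to 626) at 1 to 4, 968 CPM (939 to 997) at 5 to 9 and 1454 CPM (1425 to 1482) at 10 or more. The same order held in the other 3 libraries, where the first and last step stood at 241 and 1513 CPM in BTYNB, 439 and 1616 CPM in anti-PD-1, and 342 and 1493 CPM in combination for Aldh1a1.

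The other markers of the state, Igfbp5 and Podxl, were not part of the limits, and their ratios to other tumour states are given below. Igfbp5, a secreted protein that binds insulin-like growth factors, was measured at 1337 (control), 1708 (BTYNB), 1269 (anti-PD-1) and 1622 CPM (combination) in Upk3b/Aldh1a1 cells and at 649.9 (control), 517 (BTYNB), 489 (anti-PD-1) and 588 CPM (combination) in low cells. Every Upk3b/Aldh1a1 value lay above every low value, and the ratio within a library was 2.06-fold (1.93 to 2.2) for control, 3.3-fold (2.88 to 3.81) for BTYNB, 2.6-fold (2.42 to 2.79) for anti-PD-1 and 2.76-fold (2.47 to 3.09) for combination. Podxl, the sialomucin podocalyxin of podocytes and mesothelial microvilli, stood at 416 (control), 423 (BTYNB), 302 (anti-PD-1) and 398 CPM (combination) against 139, 98.9, 102 and 102 CPM in the low cells of the same libraries. Its groups did not overlap either, with ratios of 2.96-fold to 4.28-fold. Thinned to 5115 UMIs, Podxl was detected in 76.2%, 75.0%, 66.8% and 75.7% of Upk3b/Aldh1a1 cells, in 41.8%, 41.5%, 37.6% and 39.4% of low cells and in 2.96% (BTYNB) and 6.17% (combination) of leukocytes. Igfbp5 was detected in 81.3% to 85.3% of Upk3b/Aldh1a1 cells, in 46.3% to 57.6% of low cells and in 7.52% (BTYNB) and 16.9% (combination) of leukocytes after the same thinning.

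Across the transcriptome, 10378 genes had a mean level of at least 5 CPM and were no part of the limits. Of these, 265 (2.55%) were higher and 173 (1.67%) lower in Upk3b/Aldh1a1 cells in all 4 libraries. At 2-fold the counts were 95 (0.915%) and 53 (0.511%). The same cells were counted for the limits and for these genes, so the counts describe the state and carry no test.

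Mesothelial genes outside the limits were often higher in Upk3b/Aldh1a1 cells. Of 28 measured genes of a mesothelial list, 12 (42.9%, beside 2.55% of all genes) were higher in all 4 libraries, 3 were lower and 13 were not called. The median log2 ratio of the list was 1.08, 0.85, 1.45 and 0.83, beside -0.02, 0.02, -0.02 and 0.02 over all genes. Above the low cells in every library, at any size, were 22 of the 28, beside 17.0% of all genes. The 12 higher genes were Cldn15, Gpm6a, Upk1b, Rspo1, Nkain4, Muc16, Tbx18, Sulf1, Podxl, Msln, Igfbp5 and Ezr. Podxl and Igfbp5 had already been chosen as markers of the state, and all gene lists were written with earlier results of these data known. The share of called genes in a list is therefore a description and no independent support. Genes such as Cldn15 and Igfbp5 are counted again in lists below, so the lists are not separate from each other. Gpm6a, a membrane glycoprotein, was measured at 539 (control), 497 (BTYNB), 473 (anti-PD-1) and 463 CPM (combination) and in the low cells at 75.4, 68.4, 54.7 and 94.9 CPM, a ratio of 4.87-fold to 8.65-fold. Cldn15, a claudin of tight junctions, stood at 123 (control), 117 (BTYNB), 146 (anti-PD-1) and 115 CPM (combination) against 6.79, 20.3, 5.59 and 32.9 CPM. The 2 classes did not overlap for either gene, and the low BTYNB and combination cells held more Cldn15 than those of the other libraries. Tbx18, a transcription factor of the embryonic epicardium and mesothelium, lay at 11.8 to 15.01 CPM and in low cells at 1.83 to 2.72 CPM.

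**Figure D2:**
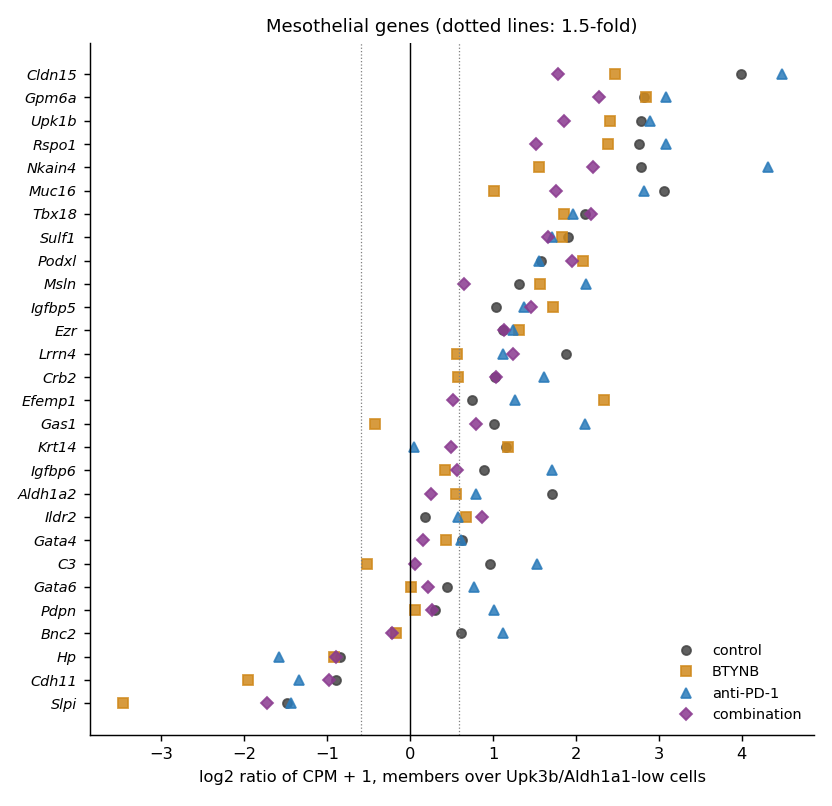
Genes of the mesothelial list in Upk3b/Aldh1a1 cells over low cells, as log2 ratios of CPM + 1 with 1 point per library. The genes from Cldn15 to Ezr lie at or above 1.5-fold in all 4 libraries, and Slpi, Cdh11 and Hp lie below 0 in all 4.

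Several mesothelial genes were at similar levels in both classes. Gata6 and Gata4, transcription factors of coelomic epithelia, were at 332 to 468 and 253 to 285 CPM in Upk3b/Aldh1a1 cells and at 194 to 464 and 163 to 252 CPM in low cells. Pdpn, the mucin-type protein podoplanin, was at 174 to 228 against 111 to 185 CPM, and Aldh1a2, the retinoic acid enzyme of embryonic mesothelium, at 80.5 to 127 against 33.3 to 96.7 CPM. None of these 4 was called. Slpi, Cdh11 and Hp were lower in all 4 libraries. For Slpi, an inhibitor of neutrophil proteases, the difference rested on few cells: low cells held 89.0, 644, 49.7 and 341 CPM, of which the top 5 cells gave 97.5% to 100% in the 4 libraries. Upk3b/Aldh1a1 cells held 31.3, 57.4, 17.7 and 102 CPM of Slpi. Its median log2 ratio over libraries was -1.60, and -0.21 without cells of 5 or more Col1a1 UMIs, an alternative chosen after seeing the data.

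Genes of the apical surface were higher in part. Of 15 measured, 5 were higher (33.3%, beside 2.55% of all genes) and 0 lower, and 10 lay above the low cells in every library, beside 17.0% of all genes. Muc16, Msln and Ezr were already named among the higher mesothelial genes. Muc16, the membrane mucin that carries the CA125 antigen, was measured at 104 (control), 119 (BTYNB), 71.9 (anti-PD-1) and 119.6 CPM (combination) and at 11.5, 58.3, 9.32 and 34.7 CPM in low cells. Its ratio lay at 2.04-fold to 8.96-fold, and the smallest ratio was that of BTYNB, where the low class held 41 cells. Msln, mesothelin, a surface protein that binds mucin 16, stood at 82.8 (control), 84.4 (BTYNB), 114 (anti-PD-1) and 78.1 CPM (combination) against 32.6, 27.9, 25.5 and 49.3 CPM. The classes did not overlap, and the smallest ratio, in combination, was 1.58. Ezr, the ezrin that ties microvilli to actin, was at 1546 to 1723 CPM against 657 to 788 CPM, and Slc9a3r1, the scaffold that ezrin binds, at 245 to 352 against 87.6 to 165 CPM. The other ezrin family members were not called: Msn, moesin, was at 97.2 to 104 CPM in Upk3b/Aldh1a1 cells and 133 to 187 CPM in low cells, and Rdx, radixin, at 96.7 to 133 and 86.2 to 122 CPM.

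Junction genes and keratins followed in part. Of 13 measured outside the limits, Cldn15, F11r and Dsg2 were higher (beside 2.55% of all genes) and 0 were lower. Dsg2, a desmosomal cadherin, was at 56.5 (control), 66.0 (BTYNB), 49.3 (anti-PD-1) and 53.4 CPM (combination) against 30.6, 20.3, 14.9 and 18.3 CPM. Krt7, one of the keratins of the tumour limit, was at 22.9 to 31.0 CPM in Upk3b/Aldh1a1 cells and 2.04 to 10.95 CPM in low cells, while Krt8 was at 249.8 to 357 and 250.0 to 369.7 CPM. Cdh2, N-cadherin, was called higher, at 59.2 to 81.3 CPM against 18.3 to 40.2 CPM, while the cadherin Cdh11 was called lower, at 2.36 to 10.7 against 5.43 to 35.5 CPM.

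Uroplakins were represented by Upk3b and Upk1b. Upk1b, a tetraspan partner of uroplakin 3 proteins, was measured at 342 (control), 299.8 (BTYNB), 416 (anti-PD-1) and 279 CPM (combination) and in low cells at 48.9, 55.8, 55.3 and 76.7 CPM. The lowest Upk1b value of Upk3b/Aldh1a1 cells, in combination, was above the highest low value, and the ratios were 6.99-fold (5.54 to 8.95) for control, 5.38-fold (3.54 to 8.59) for BTYNB, 7.52-fold (6.1 to 9.37) for anti-PD-1 and 3.64-fold (2.69 to 5.07) for combination. Upk2 and Upk3a, which form the plaques of the bladder surface together with Upk1a and Upk1b, were near 0, with 0 UMIs of Upk2 in the Upk3b/Aldh1a1 cells of all 4 libraries and at most 0.0689 CPM of Upk3a.

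Among aldehyde dehydrogenases, 3 of 13 measured beside Aldh1a1 were higher (beside 2.55% of all genes) and 0 lower. Aldh6a1, a mitochondrial enzyme of valine breakdown, stood at 108 (control), 96.1 (BTYNB), 96.7 (anti-PD-1) and 83.2 CPM (combination) against 26.5, 32.96, 29.2 and 25.6 CPM, and Aldh3b1, which oxidises fatty aldehydes, at 40.04 to 41.0 against 20.3 to 23.7 CPM. Aldh1a7 was at 35.5 (control), 37.2 (BTYNB), 36.8 (anti-PD-1) and 36.8 CPM (combination) against 0.679, 7.61, 3.73 and 9.13 CPM, but it is a close copy of Aldh1a1, so reads of 1 gene may have been counted for the other. Aldh2, the mitochondrial acetaldehyde enzyme, was at 190.5 to 208 CPM and in low cells at 185 to 391 CPM, and was not called. The retinoid pathway beyond these enzymes showed no common direction. Of 23 measured genes, Aldh1a7 was higher and Rbp2, a cellular retinol-binding protein, was lower (beside 2.55% and 1.67% of all genes). Rdh10, which makes the retinaldehyde that Aldh1a1 uses, was at 159.6 (control), 187 (BTYNB), 199.8 (anti-PD-1) and 165 CPM (combination) against 120.2, 91.3, 96.9 and 91.3 CPM. The retinol transporter Stra6 stood at 302 to 364 against 171 to 263 CPM, and the control ratio of either gene was below 1.5.

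In the insulin-like growth factor axis, Igfbp5 alone of 14 measured genes was called, as higher, beside 2.55% of all genes. Other binding proteins were spread: Igfbp6 was at 570.3, 493, 489 and 461 CPM against 306, 368, 149 and 310.3 CPM, Igfbp2 at 414, 403, 385 and 395 against 398, 183, 246 and 206 CPM, and Igfbp4 at 94.6, 81.0, 271 and 89.2 against 84.2, 233, 685 and 276 CPM. Igfbp6 was thus above the low cells in every library and Igfbp4 below them in all but control. Igf1r, the receptor, was at 89.4 to 130.3 CPM and in low cells at 132 to 179 CPM. Igf2bp1, the target of BTYNB, was measured at 12.6 (control), 8.91 (BTYNB), 14.7 (anti-PD-1) and 11.8 CPM (combination) in Upk3b/Aldh1a1 cells. A list of oncofetal genes, most of them of RNA-binding proteins, had 6 measured genes. The 1 called was Hmga2, a chromatin protein of embryonic tissue, which was lower (beside 1.67% of all genes).

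Wnt pathway genes included 5 higher and 0 lower of 17 measured, beside 2.55% and 1.67% of all genes. Lgr5, the R-spondin receptor that marks stem cells in several epithelia including that of the ovary, was measured at 26.5 (control), 25.5 (BTYNB), 33.4 (anti-PD-1) and 22.2 CPM (combination) and in low cells at 5.43, 2.54, 7.46 and 3.65 CPM. The classes did not overlap, but the low values rest on few UMIs and the ratios of 4.88-fold (2.45 to 11.4) for control, 10.1-fold (1.79 to 399) for BTYNB, 4.48-fold (2.54 to 8.73) for anti-PD-1 and 6.08-fold (1.67 to 50.5) for combination have wide intervals. After thinning, Lgr5 was detected in 10.7%, 10.7%, 13.6% and 9.64% of Upk3b/Aldh1a1 cells, in 2.26%, 2.44%, 3.85% and 2.82% of low cells, and in 0.506% (BTYNB) and 0.686% (combination) of leukocytes. Rspo1, the ligand of Lgr5, stood at 97.9 (control), 96.9 (BTYNB), 92.0 (anti-PD-1) and 95.8 CPM (combination) against 13.6, 17.7, 9.94 and 32.9 CPM. The ligand genes Wnt5a and Wnt5b were at 26.9 to 41.6 and 20.1 to 28.5 CPM against 9.32 to 15.2 and 9.51 to 14.6 CPM, and the receptor gene Fzd2 at 15.2 to 22.4 against 6.83 to 10.95 CPM. Axin2, which is induced by the canonical branch of the pathway, was at 10.9 to 16.6 against 4.75 to 11.2 CPM and was not called.

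Genes known from stem-like cells did not move as 1 group. Of 13 measured beside Aldh1a1, Lgr5 was higher, and Kit and Itga6 were lower, beside 2.55% higher and 1.67% lower of all genes. Kit, the receptor of stem cell factor, was at 6.54 (control), 3.32 (BTYNB), 5.22 (anti-PD-1) and 4.71 CPM (combination) against 23.8, 22.8, 19.9 and 18.3 CPM, and every Upk3b/Aldh1a1 value lay under every low value. Itga6, an integrin of basement membranes, was at 226 (control), 179 (BTYNB), 203 (anti-PD-1) and 204 CPM (combination) against 618, 327, 684 and 389 CPM. Cd44, a hyaluronan receptor, was at 144 to 196 against 169.7 to 329.6 CPM, and Sox9 at 124 to 178 against 122 to 156 CPM. Neither was called.

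The 15 higher genes with the largest smallest ratio over the 4 libraries were Angptl7, Rab33a, Gpm6a, Cadm3, Adgrf5, Lingo1, Plxnb3, Car9, Lgr5, Ptgds, S1pr5, Aldh1a7, Tbx18, Upk1b and Adgrf4. Of these, Adgrf5, Adgrf4, S1pr5, Lgr5 and Plxnb3 are membrane receptors, and Cadm3 is an adhesion protein. Angptl7, a secreted angiopoietin-like protein, was measured at 34.8 (control), 29.7 (BTYNB), 26.3 (anti-PD-1) and 36.1 CPM (combination). Low cells had 0 UMIs of it in control and BTYNB, so Angptl7 was at least 17.1-fold and 3.9-fold higher there against a floor of 3 counts per library, and 14.1-fold (4.79 to 68.7) and 6.6-fold (2.24 to 32.1) higher for anti-PD-1 and combination. Adgrf5, an adhesion G protein-coupled receptor, stood at 18.1 to 20.6 CPM against 0 to 3.65 CPM, and S1pr5, a sphingosine-1-phosphate receptor, at 32.3 to 35.5 against 1.36 to 7.61 CPM. Car9, a carbonic anhydrase of the cell surface, was at 24.9, 26.3, 36.2 and 27.6 CPM against 2.72, 2.54, 3.73 and 5.48 CPM, and Ptgds, a prostaglandin D2 synthase, at 107, 111, 119 and 109 against 9.51, 27.9, 13.7 and 23.7 CPM. For each of these 5 genes every Upk3b/Aldh1a1 value lay above every low value, which the choice of genes by their smallest ratio favours.

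The 15 lower genes with the largest smallest ratio were Ffar4, Clstn3, Ndnf, Zfp618, Mob3b, Aqp1, Kit, Rasef, Vegfc, Dpysl3, Ank, Hmga2, Gss, Col1a1 and Cdkn1a. Ffar4, a receptor of long-chain fatty acids, was measured at 5.99 (control), 1.42 (BTYNB), 8.02 (anti-PD-1) and 3.19 CPM (combination) against 40.1, 12.7, 42.9 and 16.4 CPM. Hmga2 was at 7.3 (control), 6.26 (BTYNB), 31.6 (anti-PD-1) and 5.88 CPM (combination) against 31.2, 20.3, 142 and 36.5 CPM, so the anti-PD-1 library held the most in both classes, and its Upk3b/Aldh1a1 value overlapped the low values of other libraries. Cdkn1a, the cell cycle inhibitor p21 and a target of p53, was at 6.06 (control), 4.55 (BTYNB), 10.2 (anti-PD-1) and 7.73 CPM (combination) against 18.3, 20.3, 32.9 and 25.6 CPM. Vegfc, a growth factor of lymphatic vessels, was at 0.756 to 2.27 against 7.3 to 25.4 CPM, and Aqp1, a water channel, at 2.94 to 22.2 against 20.1 to 93.7 CPM, so that the classes overlapped for Aqp1. Ank and Col1a1 overlapped too. A lack of overlap in the others is no result, since the 15 genes were chosen for large ratios in every library. Col1a1, the main fibrillar collagen, came from few cells: 5 of 41 low BTYNB cells had any Col1a1 UMI, and the top 5 low cells held 94.0% to 100% of it in each library. The fibroblast marker sums given above were higher in the low cells of BTYNB and combination and lower in those of control and anti-PD-1.

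**Figure D3:**
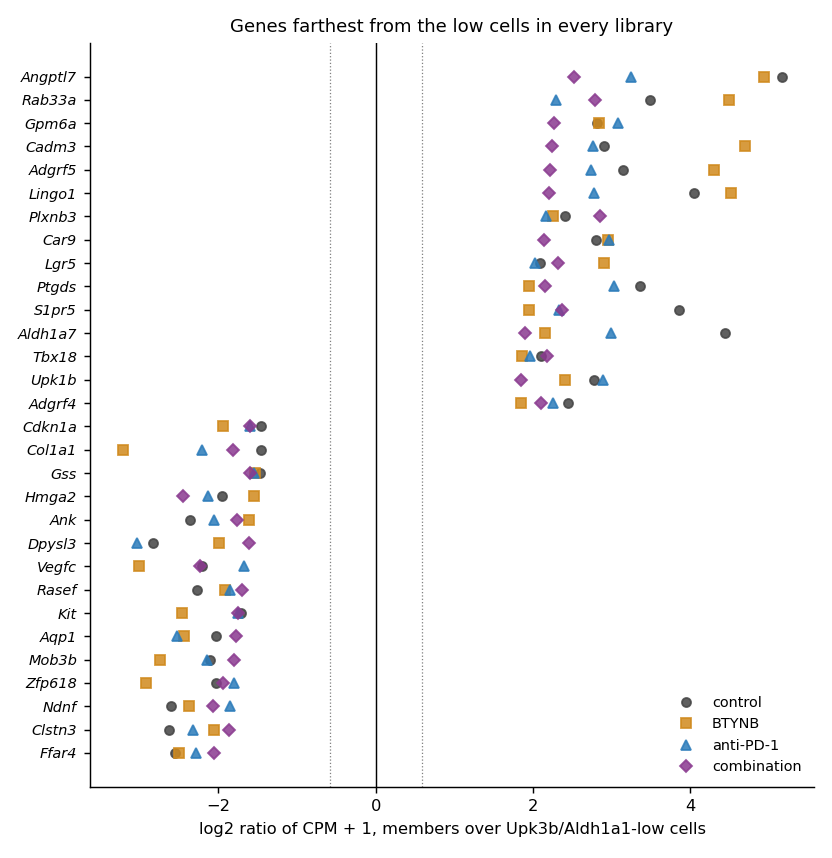
Ratios of CPM + 1 in Upk3b/Aldh1a1 cells over low cells, on a log2 axis with 1 point per library, for the 15 higher and 15 lower genes named in the text. All points of the higher genes lie right of the dotted line at 1.5-fold and all points of the lower genes left of it, with Angptl7 first (at 26.3 to 36.1 against 0 to 5.48 CPM) and Ffar4 last (at 1.42 to 8.02 against 12.7 to 42.9 CPM).

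There were 0 called genes among 22 measured of MHC class I and peptide loading, 8 of MHC class II, 24 of the interferon-gamma response, 25 of NF-kB, 33 of oxidative phosphorylation and 15 of heat shock, beside 2.55% higher and 1.67% lower of all genes. At any size, 6 of the 8 MHC class II genes were above the low cells in all 4 libraries, beside 17.0% of all genes, with list medians of 0.43, 0.86, 0.86 and 0.21. Above the low cells in all 4 libraries were also 8 of the 22 MHC class I genes and 8 of the 24 interferon-gamma genes. Of the 33 oxidative phosphorylation genes 7 were above, a share near that of all genes. Below the low cells in all 4 libraries were 3, 2 and 4 genes of these lists, beside 15.8% of all genes. Of 30 mesenchymal genes, Cdh2 was higher, and Tgfbi and Twist2 were lower. Vim, vimentin, was at 1326, 1269.5, 1547 and 1290.3 CPM against 1905, 1716, 1974 and 1455 CPM and was not called. Of 29 matrix genes, Fbln2, a fibulin of basement membranes, was higher at 504 to 629.9 against 134 to 210.4 CPM, and Col1a1, Col1a2 and Col6a3 were lower. In S phase genes the 1 call of 36 was lower, and of 27 genes of G2 and M phase outside the limits 0 were called. At any size, 19 of the S phase genes and 9 of those of G2 and M phase were below the low cells in all 4 libraries, beside 15.8% of all genes. The S phase medians were -0.30, -0.25, -0.25 and -0.63, in cells that the division limit had chosen. Of 17 complement genes the 1 called was C2, a protease of the classical pathway, at 43.8 to 56.1 against 11.5 to 25.4 CPM. Vtcn1, the ligand B7-H4, was the 1 of 7 checkpoint ligands called, at 16.5, 15.6, 21.96 and 15.04 CPM against 4.07, 5.07, 3.73 and 0 CPM.

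Igfbp5, Podxl and Kit were also read in steps of the Upk3b and Aldh1a1 count. In cells with 0 to 1, 2 to 4, 5 to 9, 10 to 19 and 20 or more UMIs of both genes, Igfbp5 stood at 649.9, 502, 956, 1406 and 1437 CPM in control. The same steps gave 517, 773, 1178, 1379 and 1891 CPM of Igfbp5 in BTYNB, 489, 502, 974, 1298 and 1496 CPM in anti-PD-1, and 588, 744, 980.3, 1447 and 1953 CPM in combination. Each step lay above the one before it in BTYNB, anti-PD-1 and combination, and in control after the second step. Podxl ran from 139 CPM (120.2 to 159) at the first step to 522 CPM (505 to 540.3) at the last in control. Kit was lower at the last step, with 23.8 CPM (16.6 to 33.1) against 4.75 CPM (3.23 to 6.74). Cells with more UMIs in all also had more of both genes, since the median depth was 7814 UMIs at the first and 9007 at the last step in control, and 8736 and 17598 in BTYNB. Values on both sides of the limit overlapped. Cells with exactly 5 UMIs held Igfbp5 at 811, 770.5, 924 and 497 CPM, and cells with exactly 4 at 692, 917, 624 and 1017 CPM. Podxl was at 199.96, 102, 178 and 133 CPM just inside and 186, 138, 178 and 194 CPM just outside, from 26 to 131 and 18 to 123 cells in a library.

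**Figure D4:**
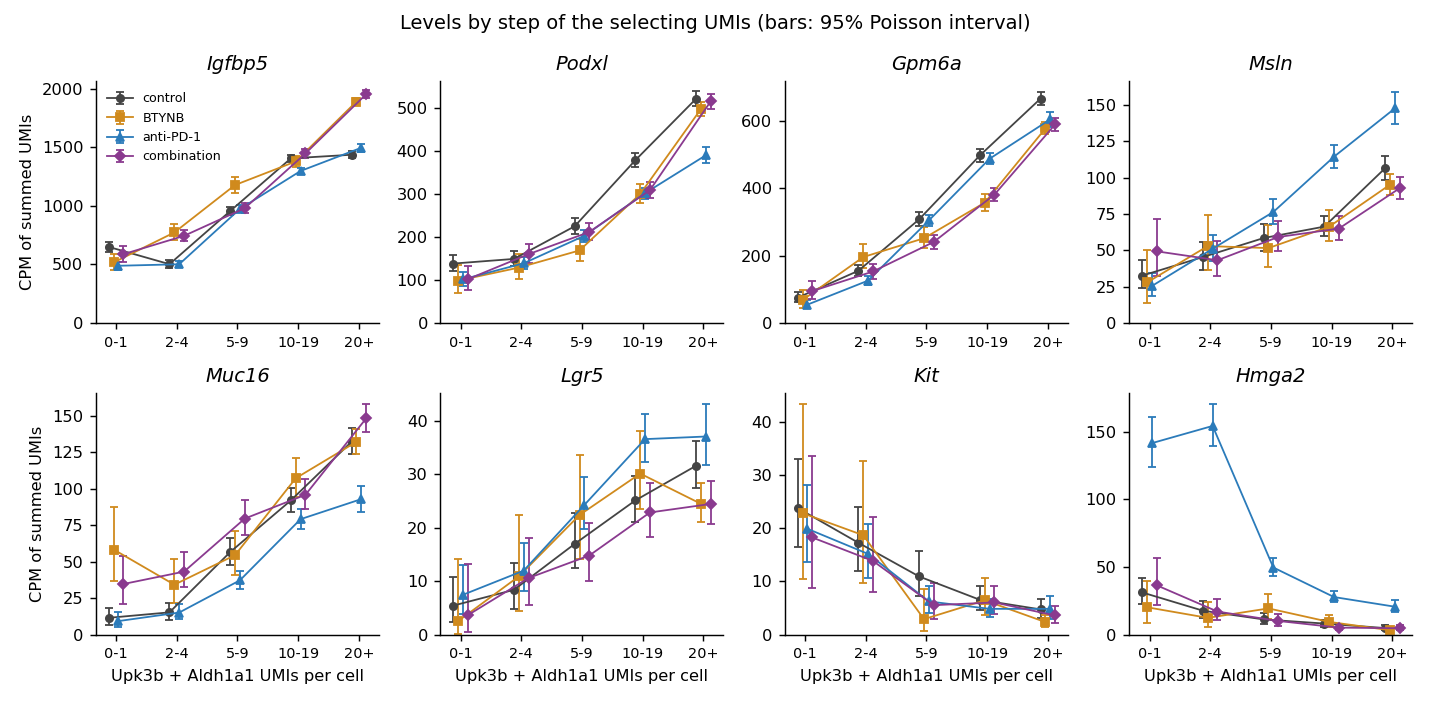
Levels in CPM of 8 genes in cells grouped by the summed UMIs of Upk3b and Aldh1a1, with 1 line per library and exact Poisson 95% intervals. Igfbp5 in control went from 649.9 CPM at 0 to 1 UMIs to 1437 CPM at 20 or more, and Kit from 23.8 to 4.75 CPM.

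The limit on Upk3b and Aldh1a1 was also met by tumour cells of other states. Of the cells that failed only the Cxcl17 limit, 57.6%, 86.5%, 64.7% and 84.4% held at least 5 UMIs of both genes together. Of the cells that failed only the division limit the shares were 69.0%, 79.1%, 72.8% and 76.9%, and of those that failed only the Cd24a, Gkn2 and Krtdap limit 95.3%, 97.1%, 50.4% and 92.6%. Of leukocytes the highest share was 0.137%. In the comparisons that follow, the tumour cells of other states were not held to the limit on Upk3b and Aldh1a1. Genes that go with Upk3b and Aldh1a1 can therefore be higher in Upk3b/Aldh1a1 cells through the choice alone. The part of the choice in these ratios was not tested. Against the Cxcl17-high cells, 87 of 10378 genes (0.838%) were higher and 62 (0.597%) lower in Upk3b/Aldh1a1 cells. Of the 28 mesothelial genes, 4 were among the higher ones, with list medians of 0.83, 0.09, 0.48 and 0.11. Several of them stood at similar levels in both classes in BTYNB and combination. Muc16 had log2 ratios of 1.22, 0.06, 0.67 and 0.06, and Msln of 0.54, -0.01, 0.37 and 0.03. Those of Cldn15 were 1.23, 0.06, 0.76 and 0.05, and those of Upk1b 0.90, 0.06, 0.51 and 0.13. Also higher were 8 of 29 matrix genes and 4 of 5 fibroblast markers, whose list medians were 2.30, 1.29, 1.25 and 1.42. Col1a1 had log2 ratios of 2.32, 4.20, 1.23 and 3.44 and Slpi 4.04, 4.29, 2.20 and 4.79 against the Cxcl17-high cells, and both rest on few cells. Adgrf5 was higher, with log2 ratios of 2.26, 1.37, 1.70 and 1.60, and Ffar4 was lower with -2.47, -2.15, -1.90 and -1.42. Against dividing cells, 373 genes (3.59%) were higher and 399 (3.84%) lower, with 8 of the 28 mesothelial genes higher. Division genes chose the dividing cells, and 33 of 36 S phase genes and 26 of 27 of G2 and M phase were among the lower ones. Against Cd24a-high cells, 168 (1.62%) were higher and 61 (0.588%) lower, with 11 of the 28 mesothelial genes and 4 of the 5 fibroblast markers higher. The mesothelial list medians were 0.74, 0.42, 1.45 and 0.69. Muc16 stood above the Cd24a-high cells by log2 ratios of 2.01, 0.86, 3.02 and 1.40, and Rspo1 and Msln were above them in every library too. Other genes named above differed less or were lower outside anti-PD-1. Upk1b had log2 ratios of 0.30, 0.28, 1.79 and 0.02, and Adgrf5 of 0.29, -0.49, 1.59 and -0.01. Those of Lgr5 were -0.12, -0.58, 0.46 and -0.39, and those of Lrrn4 -0.48, -0.32, 1.21 and -0.56. The markers Igfbp5 and Podxl lay above all these states, by sizes that differed. Log2 ratios of Igfbp5 were 1.01, 0.66, 0.80 and 0.75 against Cxcl17-high cells. Against dividing cells they were 1.81, 1.64, 1.64 and 1.33, and against Cd24a-high cells 1.04, 0.11, 2.54 and 1.72. For Podxl the same comparisons gave 1.06, 0.51, 0.77 and 0.36, then 1.18, 0.56, 0.86 and 0.88, then 0.87, 0.76, 1.02 and 1.26.

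The effect of treatment was read within the Upk3b/Aldh1a1 cells. BTYNB was judged from BTYNB over control and from combination over anti-PD-1, and anti-PD-1 from anti-PD-1 over control and from combination over BTYNB. The contrasts of a treatment share no library with each other, while each library serves both treatments. A gene was called where it differed at least 1.5-fold the same way in both contrasts. Of 10249 genes with a mean of at least 5 CPM in these cells, 53 (0.517%) were higher and 67 (0.654%) lower with BTYNB, and 21 (0.205%) were higher and 1 (0.00976%) lower with anti-PD-1. At 2-fold the counts were 12 (0.117%) higher and 12 (0.117%) lower with BTYNB, and 4 (0.039%) higher and 0 (0%) lower with anti-PD-1. BTYNB moved with depth, since both libraries with BTYNB held deeper Upk3b/Aldh1a1 cells than their partners (median 15080 against 8240.5 UMIs, and 9947.5 against 6802). The part of depth was not tested. With cells weighted to the depth bands of the control cells, 177 were higher and 127 lower, with 46 of the 53 and 53 of the 67 among them. The deepest band had no upper bound, so this weighting did not make depth equal.

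Neither Igfbp5 nor Podxl passed 1.5-fold in both contrasts of a treatment. Over 29 measured mesothelial genes the median log2 ratio was 0.02 and 0.11 in the contrasts of BTYNB and -0.18 and -0.02 in those of anti-PD-1, beside -0.02, 0.04, -0.07 and 0.00 over all genes. Igfbp5 had ratios of 1.28-fold (1.25 to 1.3) and 1.28-fold (1.25 to 1.3) in the contrasts of BTYNB. Podxl stood at 0.726-fold (0.699 to 0.754) in anti-PD-1 over control and at 0.941-fold (0.903 to 0.98) in combination over BTYNB. Cdh11, Prg4 and Slpi were the 3 mesothelial genes called higher with BTYNB (beside 0.517% of all genes), and 0 were called with anti-PD-1. Slpi rested on few cells here too, since 20 of 681 BTYNB cells held a UMI of it and 5 of them held 83.5% of its UMIs.

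The 8 genes lower with BTYNB by the largest smaller ratio were Perp, Clic5, Pigz, Myl7, Gpr182, Mylk, Zbtb8b and Cep55. Perp, a desmosomal membrane protein and target of p53, was measured at 30.6 (control), 11.7 (BTYNB), 38.3 (anti-PD-1) and 14.3 CPM (combination), so both BTYNB libraries lay under both others. The Perp ratios were 0.38-fold (0.309 to 0.466) and 0.373-fold (0.313 to 0.443). Clic5, an ezrin-associated protein of microvilli, stood at 106 (control), 42.6 (BTYNB), 206 (anti-PD-1) and 53.3 CPM (combination), with ratios of 0.402-fold (0.361 to 0.447) and 0.259-fold (0.237 to 0.282). Mylk, the myosin light chain kinase, was at 122 (control), 51.5 (BTYNB), 120.0 (anti-PD-1) and 56.1 CPM (combination). The low cells held Perp at 59.8, 30.4, 67.7 and 12.8 CPM and Mylk at 249, 101, 222 and 113 CPM. Of 33 measured S phase genes, 25 were below 0 in both contrasts, beside 29.7% of all genes, and Uhrf1, Cdc6 and Rpa2 were among those called lower. The division limit is a fixed number of UMIs, so it is stricter in the deeper BTYNB cells. With the depth weighting 26 of the 33 were below 0 in both contrasts, and the list median was -0.46 and -0.39.

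Among the genes most clearly higher with BTYNB were Igkc, Prg4, Ighm, Col1a1, Col1a2, Steap4 and H2-Q7. Igkc and Ighm are immunoglobulin genes of B cells. Igkc was measured at 3.1 (control), 17.5 (BTYNB), 2.67 (anti-PD-1) and 22.4 CPM (combination), and the sum of 8 B-cell and plasma cell markers was 25.7, 46.9, 30.9 and 50.8 CPM, so B-cell transcripts moved with BTYNB in cells chosen to lack Ptprc. Cd79a gave most of that sum, at 23, 32.2, 28.4 and 33.7 CPM, and Jchain and Mzb1 stood below 1 CPM. The part of B-cell transcripts in these genes was not tested. Prg4, the lubricating proteoglycan of joint and mesothelial surfaces, was at 0.758, 10.9, 1.59 and 10.6 CPM, with both BTYNB libraries above both others. Col1a1 and Col1a2 stood at 21.6, 82.1, 23.7 and 103 and 21.8, 82.9, 18.8 and 109.7 CPM, and 5 BTYNB cells held 79.3% of the Col1a1 UMIs of that library. Without cells of 5 or more Col1a1 UMIs, an alternative chosen after seeing the data, 37 genes were higher with BTYNB, 36 of them among the 53, and Steap4 was not among them, with a smaller log2 ratio of -0.098. Immediate early genes, which answer stress and growth signals within minutes, were above 0 in both contrasts for 23 of 26, beside 33.1% of all genes, with median log2 ratios of 0.33 and 0.46. Of these genes, 2 were called higher, beside 0.517% of all genes.

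Of the 21 genes higher with anti-PD-1, 6 belonged to a list of genes induced by interferon-gamma, the cytokine of activated T cells. The 8 leading genes were Ccl5, C1qc, Pthlh, Ly6a, Iigp1, Igtp, H2-Eb2 and C1qb. Igtp, an interferon-induced GTPase, was measured at 82.2 (control), 69.9 (BTYNB), 211 (anti-PD-1) and 128 CPM (combination), a ratio of 2.57-fold (2.41 to 2.75) and 1.83-fold (1.68 to 2.0). Iigp1, a GTPase of the same family, stood at 67.5 (control), 59.1 (BTYNB), 154 (anti-PD-1) and 115 CPM (combination). For both genes the 2 libraries with the PD-1 antibody lay above the 2 without it. Of 24 measured genes of the interferon-gamma response, 22 were above 0 in both contrasts, beside 21.1% of all genes. Gbp3, Gbp7, Igtp, Iigp1, Irgm2 and Tap1 were called higher, beside 0.205% of all genes. The list median was 0.69 in anti-PD-1 over control and 0.46 in combination over BTYNB, and in the low cells 0.70 and 0.62. With the depth weighting 18 of the 24 were above 0 in both contrasts, with medians of 0.60 and 0.40. Tap1, the peptide transporter of MHC class I loading, was at 124 (control), 121 (BTYNB), 207 (anti-PD-1) and 191 CPM (combination), and Cd274, the PD-1 ligand PD-L1, at 10.7 (control), 13.7 (BTYNB), 22.3 (anti-PD-1) and 21.8 CPM (combination). With the depth weighting the contrasts of Cd274 did not point the same way.

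Of 8 measured MHC class II genes, H2-DMb2 was called higher with anti-PD-1 (beside 0.205% of all genes), and 7 were above 0 in both contrasts (beside 21.1% of all genes). H2-Aa, a chain of the class II molecule, stood at 1008 (control), 1239 (BTYNB), 2334 (anti-PD-1) and 1539 CPM (combination), with ratios of 2.32-fold (2.27 to 2.36) and 1.24-fold (1.21 to 1.27). H2-DMb2, which helps to load peptides onto class II, was at 10.9 (control), 17.4 (BTYNB), 83.4 (anti-PD-1) and 26.9 CPM (combination). C1qc and C1qb are complement genes of macrophages, and C1qc was at 5.58 (control), 4.36 (BTYNB), 14.7 (anti-PD-1) and 11.6 CPM (combination). Macrophage markers were higher in the same libraries, at the sums given above, and their part in these genes was not tested. With cells holding a UMI of Lyz2, Igkc or Ighm left out, chosen after seeing the data, the interferon-gamma medians were 0.71 and 0.51. Pthlh, parathyroid hormone-like hormone, was at 1.86 (control), 0.474 (BTYNB), 32.1 (anti-PD-1) and 2.02 CPM (combination), so that anti-PD-1 stood above the other 3. Per1, a gene of the circadian clock, was the 1 lower gene, at 54.3 (control), 73.6 (BTYNB), 35.3 (anti-PD-1) and 42.9 CPM (combination).

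**Figure D5:**
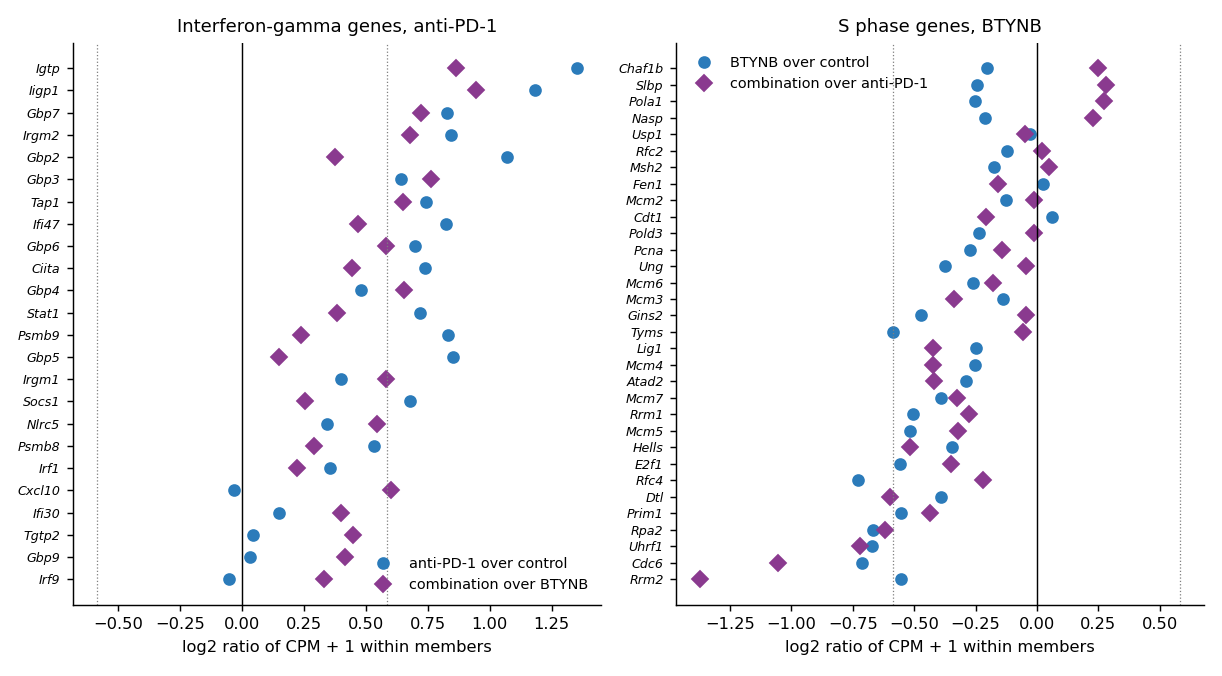
Ratios of CPM + 1 within Upk3b/Aldh1a1 cells on a log2 axis, for 24 genes of the interferon-gamma list with anti-PD-1 (anti-PD-1 over control, combination over BTYNB) and for 32 of the 33 S phase genes with BTYNB (BTYNB over control, combination over anti-PD-1), with dotted lines at 1.5-fold. Both points lie above 0 for 22 of the 24 interferon-gamma genes and below 0 for 24 of the 32 S phase genes drawn.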

How the data were processed

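Cells of erythrocyte-depleted, cryopreserved ascites were captured on the BD Rhapsody HT Express system after removal of dead cells. The authors counted UMIs with the vendor's pipeline (build GRCm39 per the submitters' processing notes) and deposited the counts unscaled, as 1 cell by gene matrix for each library whose genes are named by symbol, without coordinates. All 4 matrices were used, over 29835 genes, of which 23809 were in every library. The values were whole numbers with different totals, from 78603888 to 114600397 UMIs. Cells under 200 genes (331, all in BTYNB) or over 33% mitochondrial UMIs (24, 956, 144 and 32 cells in control, BTYNB, anti-PD-1 and combination, some of them failing both) were left out, with the prefix mt- in place of the gene catalogue of the study. A cell number occurred in 2 libraries for 13 numbers and in 3 or more for 0.

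UMIs were summed per class and library, scaled to CPM of all UMIs and compared as log2 of CPM + 1 at a mean of at least 5 CPM. Intervals are exact 95% intervals (Poisson for levels, Clopper-Pearson for shares, conditional binomial for ratios), and the limit for a count of 0 is 3 counts. All cover counting error only. Doublets were scored with scrublet in scanpy 1.11.5 and kept in the main values. Its own threshold marked 0.0128% and 0.158% of cells in control and anti-PD-1, which is too few to have worked, so leaving out the top 5% of scores was an alternative. Of the Upk3b/Aldh1a1 cells 2.46%, 1.74%, 3.03% and 2.64% were in that top 5%.

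The members, gene lists and comparisons were chosen with earlier results of these data known. Named are the markers and genes of the limits, the 15 genes in each direction with the largest smallest ratio over libraries, up to 4 genes of each list by median ratio, and 8 genes per direction and treatment. A few genes that this rule covers are not reported here. Called members of a list, genes set beside them and the genes given as not called were named after their values were seen. The script was tested on simulated counts. Python 3.11.15, numpy 2.4.6, scipy 1.17.1, pandas 2.3.3 and matplotlib 3.10.9 were used.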

Additional observations from a re-analysis of the deposited data

Results flagged for a closer look

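Lyz2 and Hba-a1 were at least 2-fold higher in Upk3b/Aldh1a1 cells than in low cells in 1 or more libraries and at least 2-fold lower in others. The difference between the libraries was not tested. Lyz2, the lysozyme of macrophages, had log2 ratios of -1.35 (control), -0.85 (anti-PD-1) and -3.75 (combination), and 1.46 in BTYNB, where 3 of 41 low cells held a UMI of it. Hba-a1, an alpha globin gene of erythrocytes, had log2 ratios of 1.15 in control and 1.77 in BTYNB, and -1.54 in anti-PD-1 and -0.86 in combination.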

How the results depend on the processing

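Of 148 values that answer a comparison, each recomputed under 1 changed choice, 102 stayed within 1.5 times the reported count, the binomial interval or the spread over libraries and 46 did not. No gene called against low cells in one direction was called in the other under any alternative. Changes of pseudocount, level filter, fold or set of libraries used the same sums, so they could not show such a reversal. The mesothelial median could not change with the level filter or fold, and those values are among the 102. No paired analysis was possible because each group is 1 library. The share of Upk3b/Aldh1a1 cells among cells past the other limits was 87.0% (control), 74.2% (BTYNB), 85.9% (anti-PD-1) and 90.6% (combination) at 3 UMIs, and 62.9%, 45.9%, 51.6% and 65.0% at 10 UMIs. It was 63.9%, 68.9%, 67.2% and 69.0% with each cell thinned to 5115 UMIs and all limits applied again, which let other cells in. At 5 per 10000 UMIs it was 81.5% (control), 84.6% (BTYNB) and 83.2% (anti-PD-1), and in cells of at least 5115 UMIs 87.3% (BTYNB) and 78.5% (anti-PD-1). Against cells that passed the tumour limits alone, 636 genes were higher and 528 lower, the mesothelial median was 1.37 (0.96 against low cells), and the oxidative phosphorylation median was -0.048 (0.053 against low cells). Of the genes against low cells, 100 were lower at a pseudocount of 5 CPM, 428 higher with no filter on level, 168 higher and 87 lower at a mean of 20 CPM, and 95 and 53 at 2-fold. Without 1 library each in turn, 319 to 386 were higher and 239 (without BTYNB) to 266 (without combination) lower. Within Upk3b/Aldh1a1 cells, the genes lower with anti-PD-1 were 4 with means over cells and 0 with median-of-ratios scaling. At a pseudocount of 5 CPM, 26 were higher and 24 lower with BTYNB, and 9 higher and 0 lower with anti-PD-1. At a mean of 20 CPM, 23 were higher and 22 lower with BTYNB, and 10 higher with anti-PD-1. At 2-fold the counts were 12, 12, 4 and 0, and in cells of 10 or more Upk3b and Aldh1a1 UMIs 32 were higher with BTYNB. With cells weighted to the depth bands of the control cells, 177 were higher and 127 lower with BTYNB, and 37 and 13 with anti-PD-1. Alternatives chosen after seeing the data left out cells with a Lyz2, Igkc or Ighm UMI, with 2 genes lower with anti-PD-1, or cells with 5 or more Col1a1 UMIs, where the smaller log2 ratio of Steap4 with BTYNB was -0.098. The cause of these changes was not tested, apart from fewer genes tested at 20 CPM. Treatment calls use all 4 libraries, so none could be left out. The 41 low cells in BTYNB and 71 in combination limit the precision of those ratios.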
